A study of Mus musculus with 4 samples.

Results

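The Mup, Scgb and Esp genes encode small secreted proteins, some of which carry scent and social signals between mice. The H3K9me3 peaks of these genes are described here in muscle stem cells with and without induced deletion of Setdb1. The members are the autosomal protein-coding genes of the mm10 build whose symbol is Mup or Esp followed by a number, or begins with Scgb. There were 77 of them among 20661 autosomal protein-coding genes. They comprised 22 Mup genes, 40 Scgb genes and 15 Esp genes. Symbols and types came from a RefSeq gene table, and 3 Scgb members whose symbols end in "-ps" (Scgb2b4-ps, Scgb2b13-ps and Scgb1b26-ps) are listed there as protein-coding. For each gene the measurement was the share of its window, the gene plus 5 kb on both sides, that lay under H3K9me3 peaks.

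The cells were mouse muscle stem cells isolated by magnetic sorting and kept in culture. They carried loxP-flanked Setdb1, which encodes a histone H3 lysine 9 methyltransferase, and a tamoxifen-dependent Cre recombinase driven by Pax7, a gene of muscle stem cells. The control library came from cells given ethanol and the deleted library, labelled TAM, from cells given 4-Hydroxytamoxifen, each for 72 h. Both genotypes are thus floxed and carry the Cre. The genotype reads Setdb1lox/lox;Pax7GakaCreERT2 for the control and Setdb1lox/lox;Pax7GakaCreERT3 for the deleted library, so the labels differ in their last digit. The cells are described as a primary cell line, and no label says how many animals or cultures they came from. With a single H3K9me3 library on each side (1 and 1), no difference has a replicate check and no test was made. Setdb1 itself was not measured by these lists.

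On the autosomes the control list held 103258 peaks covering 131 Mb and the deleted list 108595 peaks covering 129 Mb. The median peak had a fold enrichment of 2.57 in the control and 2.59 in the deleted list, as given by the authors. A −log10 q-value of 2 or more was reached by 19.0% of peaks in the first and 11.7% in the second, and the read depth is unknown. Over all autosomal protein-coding genes the mean window coverage was 3.04% and 3.01%, with a median of 0 in both lists. None of 7 muscle stem cell marker genes, Pax7, Myf5 and Myod1 among them, had a peak in either list. Of 4 markers of other cells in muscle, Ptprc, a leukocyte gene, was covered at 0% and 0.753%, and the others had no peak.

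H3K9me3 marks silenced chromatin and is deposited by SETDB1 and related enzymes over repeats and over clusters of duplicated genes. Major urinary proteins, from the Mup genes, are lipocalins that are made mainly in the liver, bind volatile pheromones and are excreted in urine. Secretoglobins, from the Scgb genes, are small disulfide-linked secreted proteins. The Scgb1b and Scgb2b genes encode the subunits of the androgen-binding proteins of mouse saliva and tears, and Scgb1a1 encodes the main secretory protein of airway club cells. Exocrine gland-secreted peptides, from the Esp genes, are released in tears and saliva and are sensed by vomeronasal receptors. ESP1 is a male tear peptide that promotes female sexual receptivity. All 3 families have expanded in the mouse into arrays of tandem copies.

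The sequences below, from the RefSeq promoter table (GRCm38.p6), show how alike the copies are whose windows differed in coverage. Of the members, 59 had an entry there (14 Mup, 32 Scgb and 13 Esp genes), and each entry spans 250 bases before to 50 after the start. The first set holds 67 bases ending at the TATA-like box of 5 Mup genes, with TATAA in capitals, all on the minus strand. Mup15 (chr4:61439722-61439788) and Mup17 (chr4:61595850-61595916) had no peak in their windows. Mup19 (chr4:61782248-61782314) had 1 in the control list, and Mup3 (chr4:62087321-62087387) and Mup21 (chr4:62150842-62150908) had peaks in both lists.
Mup15: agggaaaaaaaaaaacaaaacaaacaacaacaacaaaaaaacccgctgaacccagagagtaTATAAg
Mup17: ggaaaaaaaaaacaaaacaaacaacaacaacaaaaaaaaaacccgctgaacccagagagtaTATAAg
Mup19: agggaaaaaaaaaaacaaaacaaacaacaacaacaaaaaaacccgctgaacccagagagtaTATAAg
Mup3: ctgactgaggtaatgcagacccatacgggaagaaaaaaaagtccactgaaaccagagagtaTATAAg
Mup21: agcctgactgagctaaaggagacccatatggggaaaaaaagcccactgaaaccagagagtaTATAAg
Over the last 30 bases the first 3 sequences were identical. Mup3 differed from Mup15 at 4 of these positions and Mup21 at 3. TATAA lay within the 50 bases before the start, on the gene's strand, in 11 of 14 Mup promoters, against 5.56% of the 20084 promoters of autosomal protein-coding genes. A run of 12 or more A was found in 4 of the 14, against 1.34%.

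The second set holds 70 bases upstream of 5 Scgb2b genes, all on the minus strand, with each TATAA in capitals. Scgb2b15 (chr7:32829669-32829738) and Scgb2b17 (chr7:33056568-33056637) had no peak in either list. Scgb2b20 (chr7:33366328-33366397), Scgb2b21 (chr7:33520468-33520537) and Scgb2b24 (chr7:33739319-33739388) had peaks in both.
Scgb2b15: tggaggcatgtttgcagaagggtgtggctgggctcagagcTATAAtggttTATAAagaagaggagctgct
Scgb2b17: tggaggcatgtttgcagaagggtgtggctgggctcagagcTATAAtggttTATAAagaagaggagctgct
Scgb2b20: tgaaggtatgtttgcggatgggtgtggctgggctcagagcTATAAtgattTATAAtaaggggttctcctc
Scgb2b21: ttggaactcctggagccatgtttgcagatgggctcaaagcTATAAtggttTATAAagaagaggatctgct
Scgb2b24: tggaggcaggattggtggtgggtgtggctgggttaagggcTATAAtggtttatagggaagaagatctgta
The 300-base promoter entries of Scgb2b10, Scgb2b15 and Scgb2b17 were the same letter for letter, as were those of Scgb1b15 and Scgb1b17. TATAA lay in the 50 bases before the start in 21 of 32 Scgb promoters. Promoters of this family were poor in CG: 26 of 32 held 2 or fewer CG dinucleotides, against 17.5% of all promoters.

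The third set shows the Esp genes of the second array on chromosome 17, all on the plus strand. TTCNNNGAA, the palindrome bound by STAT factors, is in capitals within 61 bases. It was searched over the whole promoter entry, and because it is its own reverse complement 1 search covers both strands. The windows are Esp8 (chr17:40519796-40519856), Esp6 (chr17:40561380-40561440), Esp5 (chr17:40574560-40574620), Esp3 (chr17:40631951-40632011) and Esp1 (chr17:40726983-40727043).
Esp8: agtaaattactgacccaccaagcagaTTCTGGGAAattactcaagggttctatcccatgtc
Esp6: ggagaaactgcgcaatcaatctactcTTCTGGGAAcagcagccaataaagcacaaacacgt
Esp5: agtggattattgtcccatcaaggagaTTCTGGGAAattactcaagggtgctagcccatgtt
Esp3: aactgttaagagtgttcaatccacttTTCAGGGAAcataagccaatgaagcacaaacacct
Esp1: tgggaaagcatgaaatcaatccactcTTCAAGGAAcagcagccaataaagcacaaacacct
All 5 promoters of this array with an entry held the motif, with its first base 98 to 200 bases before the start. In the first array Esp36 alone held it, which makes 6 of 13 Esp promoters, against 7.78% of all promoters. It was found in 2 of 32 Scgb promoters, Scgb3a1 and Scgb2a2, and in 0 of 14 Mup promoters. A match describes the letters only and not a bound site.

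The last pair comes from the first Esp array. Esp16 is shown for 250 bases before its start (chr17:39535892-39536141, plus strand), a promoter that lay wholly under a peak in both lists. Esp24 is shown for 150 bases (chr17:39036545-39036694, plus strand) with TATAA in capitals. Of 13 Esp promoters, that of Esp24 alone held TATAA in the 50 bases before the start. Its promoter lay partly under a peak in the control list and outside peaks in the deleted list.
Esp16: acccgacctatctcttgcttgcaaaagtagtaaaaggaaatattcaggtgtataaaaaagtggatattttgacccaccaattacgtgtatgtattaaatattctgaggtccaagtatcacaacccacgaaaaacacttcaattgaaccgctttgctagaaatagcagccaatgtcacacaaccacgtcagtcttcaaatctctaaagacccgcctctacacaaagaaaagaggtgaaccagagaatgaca
Esp24: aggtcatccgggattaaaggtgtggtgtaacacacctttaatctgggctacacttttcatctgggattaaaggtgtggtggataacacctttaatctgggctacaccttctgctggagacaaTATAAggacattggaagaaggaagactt
The promoter of Esp16 was 96.9% identical to that of Esp15, the closest pair among the Esp genes.

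The Esp genes were the most densely covered of the families, and their mean coverage was lower in the deleted list. Mean window coverage was 35.3% in the control and 28.2% in the deleted list, and the medians were 30.4% and 27.6%. All 15 windows held a control peak (95% Wilson interval 79.6 to 100%), and 14 of 15 held a peak of the deleted list (70.2 to 98.8%). Among all autosomal protein-coding genes 30.2% and 30.8% had a peak in the window. The intervals cover counting error only, and neighbouring windows share peaks. Over 10% of the window was covered in all 15 genes for the control and in 13 for the deleted list, against 8.82% and 9.11% of all genes. In 6 of the 15 genes over 50% of the window was covered in at least 1 list, against 1.29% of all genes.

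Coverage of 8 Esp genes was over 10 percentage points lower in the deleted list and that of 3 was over 10 points higher. Among all genes 2.67% were over 10 points lower and 2.44% over 10 points higher. Of the 1059 protein-coding genes of chromosome 17, which include both arrays, 52 were over 10 points lower and 25 over 10 points higher. Their mean coverage was 5.21% in the control and 4.66% in the deleted list. The median Esp difference was -10.3 points, against 0 over all genes. In any direction, 11 Esp genes were lower and 4 higher. The mean difference was -7.10 points with all peaks, -3.41 with peaks of a −log10 q of 2 or more and 0.301 with those of 3 or more. The threshold of 2 kept 20005 control and 13138 deleted peaks, and that of 3 kept 1984 and 1173. The difference over all genes was not computed at these thresholds. The differences of Esp34, Esp24, Esp18, Esp15, Esp5 and Esp1, given next, turned sign under at least 1 other peak threshold, window or joining.

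Esp36 (chromosome 17, 38416474 to 38420185) had the largest difference towards lower coverage, with 53.6% for the control and 19.4% for the deleted list. Esp24 (39036695 to 39040227) was covered at 67.7% in the control list, the highest value of any member, and at 35.5% in the deleted list. Its whole gene body lay under peaks in the control list, but 16.9% did so in the deleted list. Esp34 (38554192 to 38560621) lies between these genes and went the other way, with 23.6% in the control and 57.8% in the deleted list. Thus 3 genes of 1 array differed by over 30 points, in opposite directions.

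Esp31 was covered at 51.6% and 41.3%. Esp16 was nearly equal in both lists, at 55.6% and 54.3%, and Esp38 was equal to within 1 point, at 30.4% and 30.8%. Esp15 had 47.4% and 37.1%, and Esp18 had 43.4% and 26.0%. Esp23 was the least covered gene of the first array, at 12.8% and 11.02%, and the bases covered in its window did not overlap between the lists. How often this occurred among all genes was not computed.

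Esp3 (40632075 to 40637060), in the second array, was the 1 Esp gene that had peaks in the control and none in the deleted list. Its coverage was 28.8% from 4 control peaks. Esp1 (40727120 to 40731782) was covered at 18.4% in the control and 5.43% in the deleted list. The 4 control peaks of Esp1 lay outside the gene body and the 1 peak of the deleted list lay wholly within it, so that no base was covered in both lists. Here too the share of all genes without a base in common was not computed. Esp4 and Esp8, in the same array, were more covered in the deleted list: Esp4 had 12.2% and 27.6%, and Esp8 had 10.4% and 22.4%. Esp6 had 51.5% and 42.6%, and Esp5 had 22.7% and 12.2%.

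**Figure D1:**
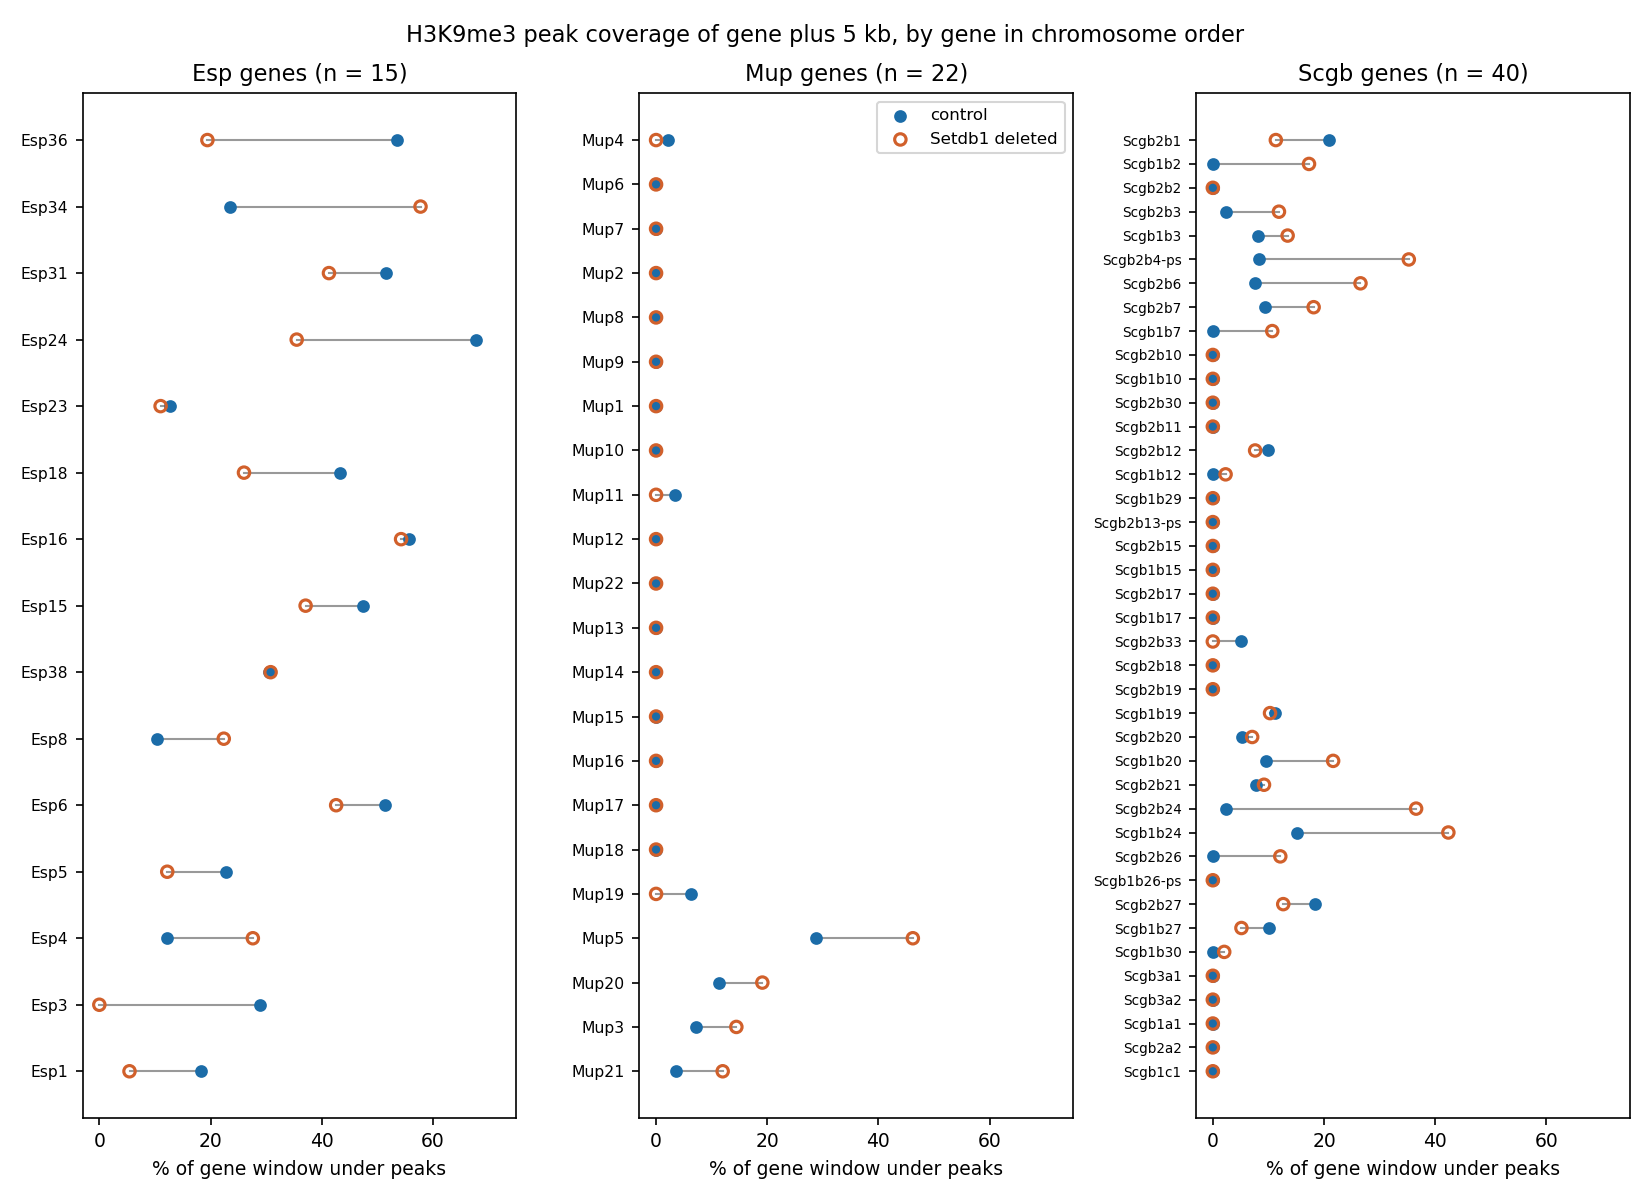
Percent of each gene window (gene plus 5 kb) under H3K9me3 peaks for 15 Esp, 22 Mup and 40 Scgb genes in chromosome order; filled points are the control library and open circles the deleted library, 1 library each. The Esp genes lie between 0 and 67.7%, whereas 15 Mup and 19 Scgb genes are at 0 in both lists.

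The member windows held 47 peaks of the control and 50 of the deleted list, of which 7 (14.9%) and 5 (10.0%) had a −log10 q of 2 or more, against 19.0% and 11.7% of all autosomal peaks. The highest value was 2.67 in the control and 3.07 in the deleted list, the latter in a peak at Esp8 with a fold enrichment of 3.47. Of the control peaks, 29 (61.7%, Wilson 47.4 to 74.2%) overlapped one of the deleted list by at least 1 base. Of the latter, 32 (64.0%, 50.1 to 75.9%) overlapped a control peak. Among all autosomal peaks the shares were 53.3% of the control and 51.5% of the deleted list, and both Esp intervals include them.

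Mean Esp coverage of the gene body over all 15 genes was 47.5% in the control and 35.6% in the deleted list. Over the 13 genes with a known strand these means were 52.4% and 32.2%. The pair without a strand, Esp34 and Esp4, are 2 of the 3 genes over 10 points higher in the deleted list, so the values by strand leave them out. Their gene bodies were covered at 10.9% and 67.8% (Esp34) and at 20.8% and 47.7% (Esp4). Over the 13 genes the 5 kb upstream had 39.1% and 23.3%, and the 5 kb downstream 23.5% and 21.6%. Across the 16456 genes with a promoter entry, the corresponding means were between 2.58% and 3.54%. Peaks touched 7 of 13 Esp promoters in the control and 5 in the deleted list, against 1.92% and 1.91% of all promoters. Promoters of Esp16, Esp31 and Esp15 were touched in both lists, those of Esp24, Esp23, Esp18 and Esp3 in the control list alone, and those of Esp6 and Esp5 in the deleted list alone.

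**Figure D2:**
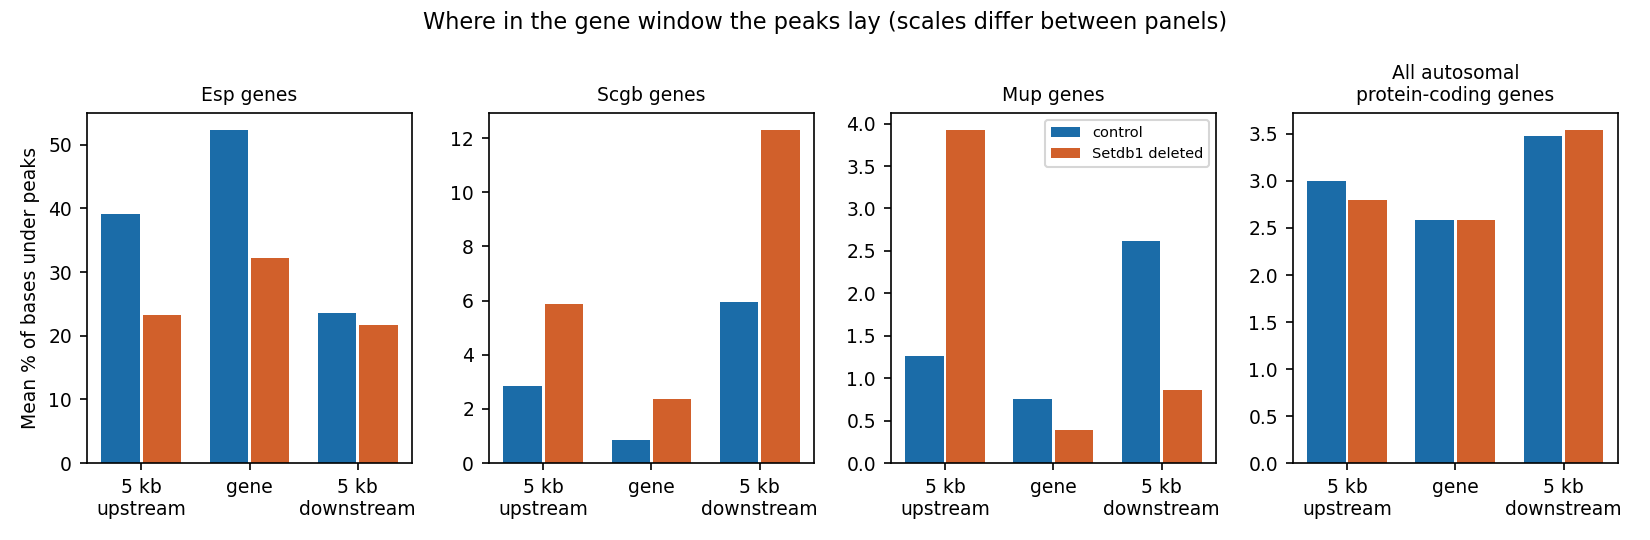
Mean percent of bases under peaks in the 5 kb upstream, the gene and the 5 kb downstream, for members with a known strand (13 Esp, 32 Scgb, 14 Mup) and all 16456 genes with a promoter entry; blue is control and orange deleted, and the vertical scale differs by panel. Esp coverage peaks over the gene (52.4% control, 32.2% deleted), while Scgb coverage is lowest there (0.84% and 2.35%). The Mup panel leaves out Mup5 and Mup20, and the Esp panel leaves out Esp34 and Esp4.

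Both Esp arrays lie on chromosome 17, where coverage extended beyond the genes themselves, though less so to the right of the second array. The first array holds 9 genes from Esp36 to Esp38 over 1549 kb (38411474 to 39960287). Of that span 32.8% lay under peaks in the control and 33.2% in the deleted list, so the span as a whole differed little while the gene windows differed. The merged gene windows had 42.7% and 35.5%, and the sequence between them 31.9% and 33.0%. The 500 kb to the left had 30.8% and 31.5%, and the 500 kb to the right 26.2% and 21.4%, against 7.53% and 7.61% of chromosome 17. The neighbours were Olfr136, an olfactory receptor gene, at 37.0% and 23.8%, and Pgk2, the testis phosphoglycerate kinase gene, at 23.3% and 10.8%.

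The second array holds 6 genes from Esp8 to Esp1 over 222 kb (40515022 to 40736782), and 21.7% of it was covered in the control and 18.7% in the deleted list. The 500 kb to the left had 26.4% and 21.5%, and it is largely the same sequence as the 500 kb to the right of the first array. The 500 kb to the right had 8.69% and 6.84%, near the 7.53% and 7.61% of chromosome 17. On the left of the array lies Crisp1, which encodes a cysteine-rich secretory protein of the epididymis, at 50.4% and 40.6%. Crisp2, its testis relative on the right, had 11.2% and 10.5%. Of the bases covered in either list, 31.1% were covered in both in the first array and 20.6% in the second. The same share was not computed over all genes or autosomes.

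The Mup genes formed 1 array on chromosome 4 in which most genes had no peak, and coverage was highest at the distal end. Mean coverage was 2.85% in the control and 4.17% in the deleted list, with medians of 0. A peak was present in 7 of 22 windows in the control list (31.8%, Wilson 16.4 to 52.7%) and in 4 of 22 in the deleted list (18.2%, 7.31 to 38.5%), near or below the background of 30.2% and 30.8%. Coverage was over 10% in 2 control and 4 deleted windows, against 8.82% and 9.11% of all genes. In both lists together, 15 genes had none, among them Mup1, Mup2, Mup9 and Mup10.

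The 4 genes at the distal end, Mup5, Mup20, Mup3 and Mup21, had peaks in both lists, and each was more covered in the deleted list. Mup5 (chromosome 4, 61831319 to 61858043) was the most covered, at 28.8% in the control and 46.2% in the deleted list. It was also the only Mup gene over 10 points higher, and none was over 10 points lower, against 2.44% and 2.67% of all genes. Of the 1328 protein-coding genes of chromosome 4, which include the array, 37 were over 10 points higher and 7 over 10 points lower. Mup20 (62011337 to 62054143), which encodes darcin, the male urinary pheromone that attracts females, had 11.3% and 19.1%. Mup3 had 7.18% and 14.4%, and Mup21 had 3.64% and 11.98%. The covered bases of Mup3 and Mup21 did not overlap between the lists, and the share of all genes without such overlap was not computed. Zfp37, the zinc finger gene next to the array on that side, had 40.4% and 50.1%.

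The 18 genes from Mup4 to Mup19 had no peak in the deleted list. In the control list 3 of them had 1 peak each: Mup19 was covered at 6.29%, Mup11 at 3.35% and Mup4 at 2.19%. This stretch of 1836 kb was covered at 1.31% in the control and 1.42% in the deleted list, and the 330 kb from Mup5 to Mup21 at 19.0% and 23.6%. Of the 85 control-list and 95 deleted-list peaks of the array, the longer stretch held 30 and 28, most of them outside the gene windows, and the 330 kb held 49 and 62. The bounds of both stretches were chosen after the values were seen. The longest run without a peak in either list was 578 kb (60669199 to 61247036), and it held 3 Mup windows. Slc46a2, the solute carrier gene on the proximal side, had no peak.

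The whole Mup array (59951804 to 62155841, 2204 kb) was covered at 4.69% and 5.49%, against 5.69% and 6.62% of chromosome 4. The member windows held 19 control peaks, of which 10 (52.6%, Wilson 31.7 to 72.7%) overlapped one of the deleted list. They held 20 peaks of the deleted list, of which 9 (45.0%, 25.8 to 65.8%) overlapped a control peak. Both intervals include the autosomal shares of 53.3% and 51.5%. A −log10 q of 2 or more was reached by 1 of the 19 and 2 of the 20, against 19.0% and 11.7% of all autosomal peaks. No Mup promoter was touched in the control list, and the promoter of Mup3 alone, of 14, lay under a peak in the deleted list. The 14 leave out Mup5 and Mup20, which have no promoter entry. Mean coverage of the gene body was 0.757% and 0.385% over the 14 genes, but 2.22% and 2.69% over all 22.

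**Figure D3:**
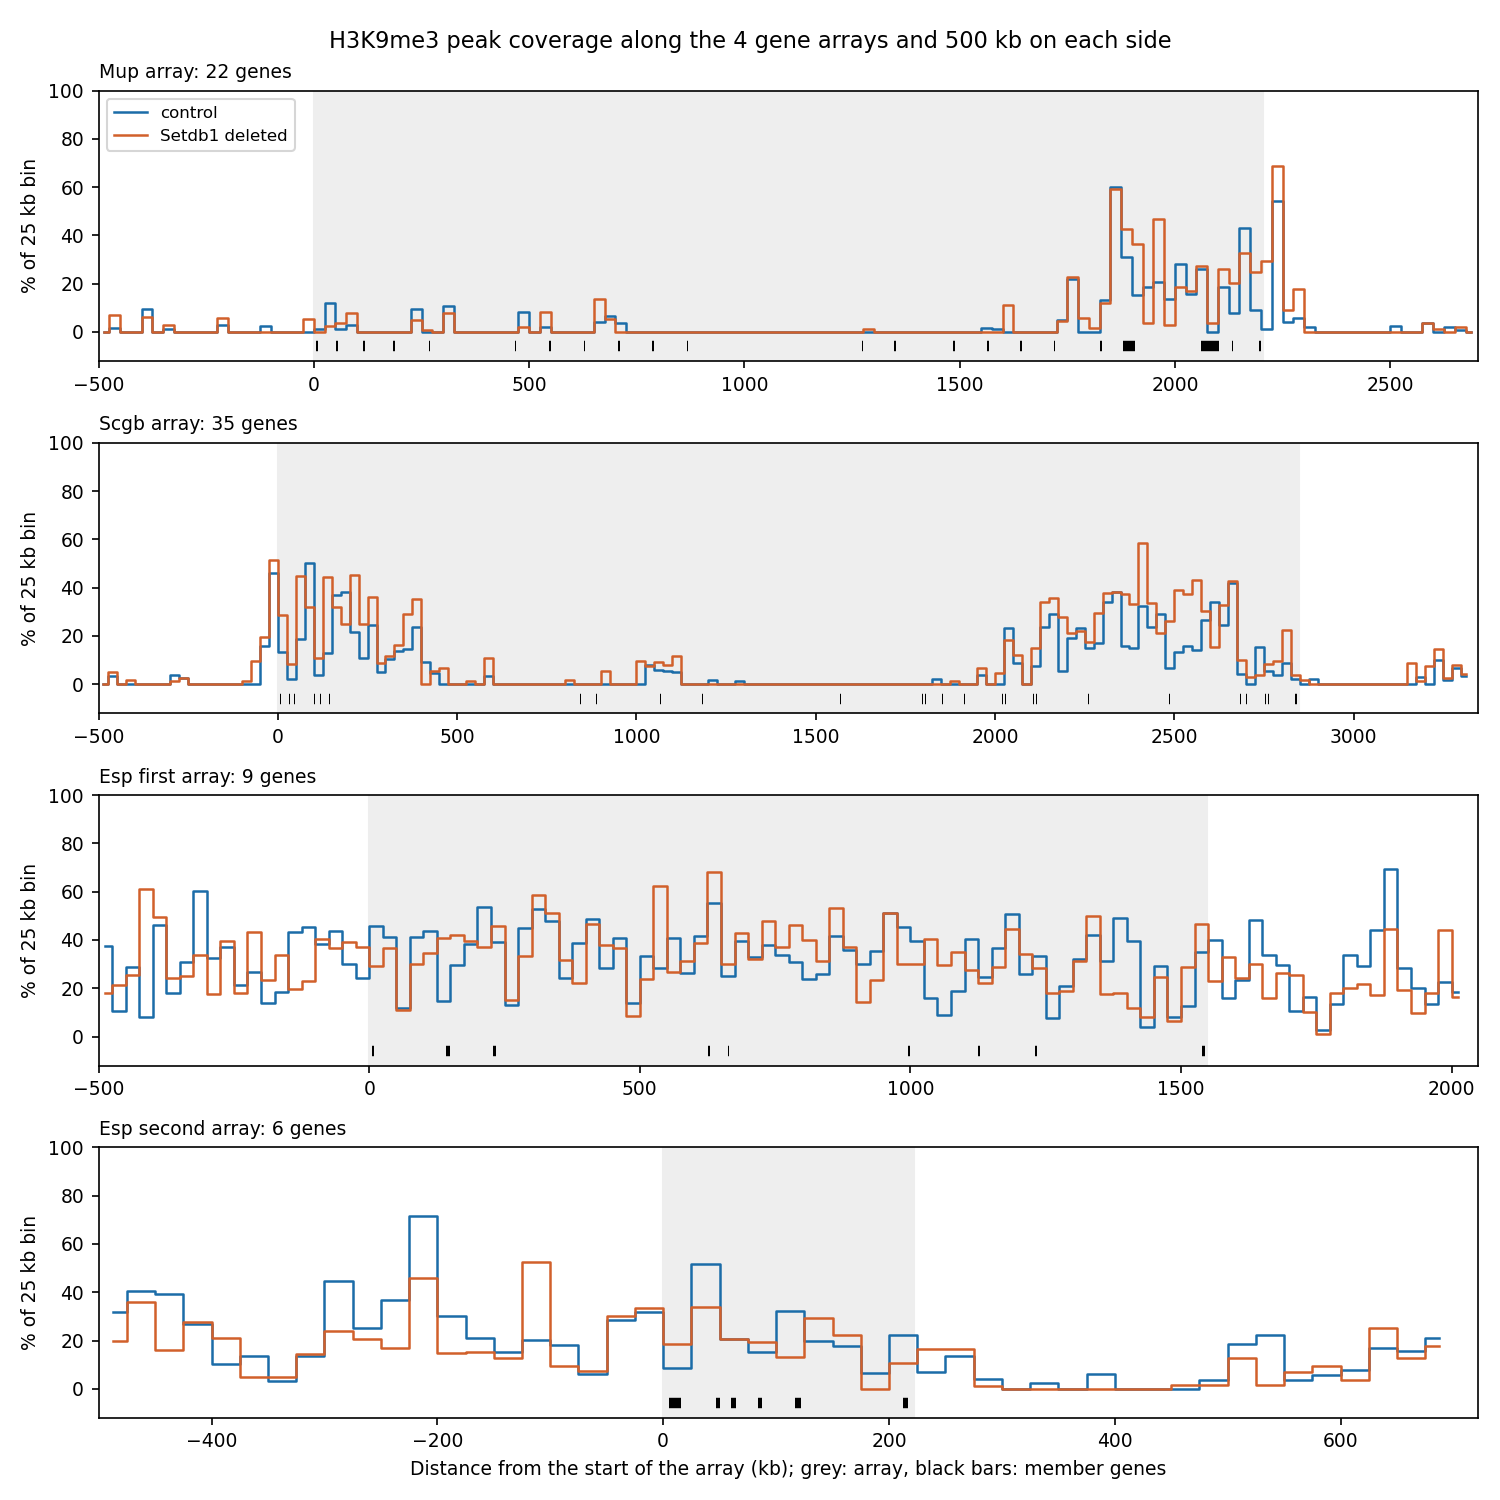
Percent of each 25 kb bin under peaks along the 4 gene arrays and 500 kb on each side, in kb from the start of the array; blue is control, orange is deleted, grey marks the array and black bars the member genes. Coverage extends along most of the Esp arrays, with bins as low as 3.78% (first array, control) and 0% (second array, deleted). It lies at both ends of the Scgb array. In the Mup array it is concentrated at the distal end, where the stretch from Mup5 to Mup21 reaches 19.0% (control) and 23.6% (deleted).

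The mean coverage of the Scgb genes was lower in the control than in the deleted list. It was 3.78% and 7.84%, against 3.04% and 3.01% over all genes, and the medians were 0 and 1.03%. A peak was present in 16 of 40 windows in the control list (Wilson 26.3 to 55.4%) and in 20 of 40 in the deleted list (35.2 to 64.8%). Among all genes 30.2% and 30.8% had one. Coverage was over 10% in 5 control and 14 deleted windows, against 8.82% and 9.11% of all genes. Coverage of 8 genes was over 10 points higher in the deleted list and of 0 genes over 10 points lower, against 2.44% and 2.67% of all genes. In any direction 15 genes were higher, 6 lower and 19 without a peak in either list. With peaks of a −log10 q of 2 or more alone, the mean difference was -0.326 points. That threshold kept 20005 control and 13138 deleted peaks, and the difference over all genes was not computed there. The median difference over the 40 genes was 0 with all peaks, and the mean was 4.06 points, against -0.033 over all genes. Of the 2030 protein-coding genes of chromosome 7, which include the array, 147 were over 10 points higher and 81 over 10 points lower. Their mean coverage was 5.07% in the control and 5.93% in the deleted list.

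Both subunit classes of the androgen-binding proteins had this difference. The 14 Scgb1b genes, which encode the alpha subunits, had mean coverage of 3.87% and 8.95%. The 21 Scgb2b genes, which encode the beta and gamma subunits, had 4.62% and 8.97%. Peaks were present at 5 Scgb1b genes in the control and 9 in the deleted list, and at 11 Scgb2b genes in each list.

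Scgb2b24 (chromosome 7, 33737193 to 33739295) had the largest difference towards higher coverage, with 2.35% for the control and 36.6% for the deleted list. Its neighbour Scgb1b24 (33743783 to 33745106) had 15.2% and 42.4%, and the windows of this pair overlap, so they share peaks. The difference of Scgb1b24 was -12.8 points with peaks of a −log10 q of 2 or more. Scgb2b4-ps (31401031 to 31403178) had 8.40% and 35.3%, and Scgb2b6 (31617583 to 31619542) had 7.51% and 26.6%. Their differences were -8.40 points with peaks at or above the median fold and -5.65 points with peaks joined within 5 kb, in that order. Scgb1b20 had 9.60% and 21.6%. Scgb1b2, Scgb2b26 and Scgb1b7 had no control peak and were covered at 17.3%, 12.1% and 10.7% in the deleted list.

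In the deleted list 6 Scgb genes were less covered, none by over 10 points. Scgb2b1, the first gene of the array, had the largest of these differences, at 20.9% and 11.3%. Scgb2b27 (34011919 to 34013942) and Scgb1b27 (34021481 to 34022881), whose products pair in saliva, had 18.4% and 12.7%, and 10.1% and 5.15%. Scgb2b33 was the 1 gene with a peak in the control list alone, at 5.00%.

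The array holds 35 of the 40 genes over 2847 kb (31258736 to 34105837), and its middle was nearly empty in both lists. The 1198 kb from Scgb2b10 to Scgb2b19 hold 15 genes, of which 3 had a peak in either list, and 0.712% of the stretch was covered in the control and 1.33% in the deleted list. The 460 kb before it, from Scgb2b1 to Scgb1b7, had 17.1% and 24.0%, with a peak at 8 of 9 genes. The 824 kb after it, from Scgb1b19 to Scgb1b30, had 17.6% and 24.9%, with a peak at 10 of 11 genes. These bounds, too, were chosen after the values were seen. In each flank 4 genes were over 10 points higher in the deleted list, against 2.44% of all genes. In the second flank these include Scgb2b24 and Scgb1b24, which share peaks.

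Inside the Scgb array the peaks lay between genes more than over them. The merged gene windows were covered at 4.41% and 8.69%, and the sequence between them at 8.78% and 12.3%. The bodies of 1 gene in the control and 4 genes in the deleted list were touched. Among the 29 array genes with a known strand, mean coverage of the gene body was 0.927% and 2.60%, against 3.13% and 6.498% in the 5 kb upstream and 6.56% and 13.6% downstream. No Scgb promoter was touched in the control list, and 2 of 32 were in the deleted list, those of Scgb2b21 and Scgb1b27.

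The Scgb windows held 20 peaks of the control and 32 of the deleted list. Of the former 8 (Wilson 21.9 to 61.3%) and of the latter 8 (25%, 13.3 to 42.1%) overlapped a peak of the other list, against 53.3% and 51.5% of all autosomal peaks. The span as a whole was covered at 8.19% and 11.8%, against 5.50% and 6.78% of chromosome 7. The 500 kb on the left had 3.61% and 4.61%, and that on the right 1.39% and 2.41%. The neighbouring genes Gramd1a and Wtip had no control peak and were covered at 0.810% and 1.22% in the deleted list.

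The 5 Scgb genes outside the array lay clear of peaks in both lists. They were Scgb3a1 and Scgb3a2, which encode airway secretoglobins, Scgb1a1, Scgb2a2 and Scgb1c1. The nearest peak lay 5.6 kb from Scgb2a2 in both lists. For the other 4 the distance was between 33.3 kb, at Scgb1c1 in the deleted list, and 109 kb, at Scgb3a2 in the deleted list.

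Similarity between copies is given beside the peaks because many copies are nearly alike. Each promoter was compared with its closest relative in the family, and genes with no alignment were placed with those under 95% identity. Of 16 Scgb genes at 95% or more, 5 had a peak in either list, with mean coverage of 2.47% and 2.37%. Of the 16 others, 12 had one, and the means were 5.17% and 13.7%. Of 9 Mup genes at 95% or more, 2 had a peak in either list, and of 5 others 3 had one. The 2 with a peak were among the 5 Mup genes at 98% or more, while 0 of the 4 at 95% to under 98% had one, so the Mup counts follow no single order. Mup5 and Mup20 have no promoter entry and are in none of these counts. In the nearly empty middle of the Scgb array, 10 of 13 promoters were at 98% or more, and in the flanks 1 of 7 and 1 of 9 were. The Esp genes differed, since Esp15 and Esp16, the 2 above 95%, were both covered. Among all genes 36.4% had a peak in either list. How reads that match several copies were treated is not given in the sources used here, and the part of copy similarity in these results was not tested.

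**Figure D4:**
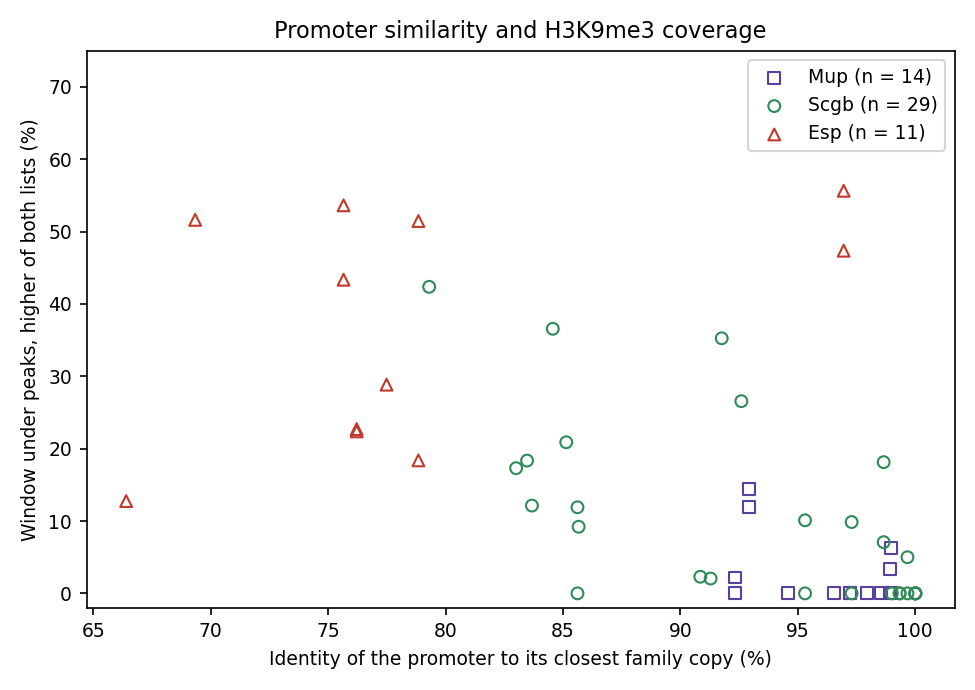
Identity of each promoter to its closest family copy (horizontal, percent) against the higher of the control and deleted window coverages (vertical, percent), 1 point per gene with an alignment (14 Mup, 29 Scgb, 11 Esp). The Mup and Scgb genes above 98% lie at or below 18.1%, while Esp15 and Esp16 at 96.9% reach 47.4% and 55.6%.

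Genes related to these proteins, or acting with them, were examined in the same way, beside 30.2% and 30.8% of all genes with a peak. Of 23 lipocalin relatives of the Mup genes (25 were listed and 23 matched), 5 had a peak in the control and 4 in the deleted list, and none differed by over 10 points. Obp1a, an odorant-binding protein gene on chromosome X, was the most covered of them, at 20.3% and 15.6%. Of 6 chemosensory genes, 1 had a peak in the control and 2 in the deleted list. Vmn2r116, which encodes the vomeronasal receptor for ESP1, was covered at 38.9% and 32.1%, while Trpc2, the channel gene of vomeronasal signalling, had no peak. Of 8 regulators of Mup transcription in liver, such as the growth hormone receptor gene Ghr (1.94% and 1.55%) and the repressor gene Zhx2 (1.72% and 1.53%), 4 had a peak in each list and 3 in neither, and none was covered by over 2%.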

How the data were processed

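The deposited files were 2 lists of broad H3K9me3 peaks, 1 per condition. The build mm10 and the tools MACS2, BWA 0.7.17-r1188 and ChIPseeker 1.30.3 are named, with no role or order, per the submitters' processing notes; settings, the use of inputs and pooling are not given in the sources used here. The peak positions, the fold enrichment (a linear ratio), and the −log10 p-value and −log10 q-value of each peak are the authors' deposited values. Depth is unknown. Peak names carry replicate 2 and sample titles replicate 1, so lists were assigned by condition. Inputs were not analysed here.

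Peaks were merged and window coverage was computed in Python 3.11.15 (pandas 2.3.3, numpy 2.4.6), by code tested on simulated data. Arrays are runs of at least 3 members of 1 family in which each start lies within 500 kb of the previous one. Promoters were aligned with Biopython 1.88, with free end gaps and at least 200 aligned bases. Peaks sharing at least 1 base counted as overlapping. With 1 library per group, differences over 10 points stand as a rule of size. Alternatives changed the window, peak threshold, list size, joining, difference size, weighting, array gap and overlap rule. Members and lists were chosen with earlier results of these data known. Named are, in each family, the 6 most covered members, the 4 largest falls and 4 largest rises over 10 points, members outside arrays, well-known members and array neighbours; others were named after their values were seen. The gene table gives 105 of the 20661 background genes positions below 3000000, where neither list has an autosomal peak; without them 30.3% and 31.0% of genes had a peak.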

Additional observations from a re-analysis of the deposited data

How the results depend on the processing

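No paired analysis was possible because there was 1 library a group, and no replicate could be left out. A mean, coverage or count is taken as moved when it changed by over 1.5 times, and a share of peaks when it left its Wilson interval; of 291 alternatives 139 were within these limits, 136 moved and 16 reversed. With the same number of peaks in both lists, 19 of the 20 members past 10 points stayed past it in the same direction. The gene alone and the gene plus 10 kb each kept 12 of the 20, peaks at or above the median fold 12, joined peaks 14, a −log10 q of 2 or more kept 2, and 3 or more kept 0. At 2 or more 20005 peaks of the control and 13138 of the deleted list remained, and at 3 or more 1984 and 1173, so fewer peaks were left to count. Coverage differences over all genes and overlap shares over all autosomal peaks were computed in the main setting alone. Causes of the other changes were not tested.

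For the gene alone, the mean difference was 0.473 points for Mup, 1.21 for Scgb and -11.9 for Esp. Peaks then touched 3 Mup genes in the control list, and 1 and 4 Scgb genes; 2 Scgb genes were over 10 points higher and 1 lower, and 5 Esp genes were higher. With 10 kb the Esp mean was -1.99, with 4 genes lower, and 2 Mup genes were higher. With a −log10 q of at least 2, means were 0.539 for Mup, -0.326 for Scgb (reversed) and -3.41 for Esp. Control and deleted counts with a peak were then 1 and 2 for Mup, 3 and 3 for Scgb, and 7 and 5 for Esp; 0 Scgb genes were over 10 points higher and 1 lower, and 1 Esp gene was higher and 3 lower. At 3 or more the means were 0 for Mup, 0.234 for Scgb and 0.301 for Esp (reversed), with 0 and 0 Mup, 0 and 1 Scgb, and 0 and 1 Esp genes with a peak, and 0 past 10 points in any family. With peaks at or above the median fold, 4 Mup and 10 Scgb genes had a control peak, 3 Mup genes were over 10 points higher, 5 Esp genes were lower, and the Scgb mean was 2.47. With peaks joined within 5 kb the Scgb mean was 8.21; 2 Mup genes were higher and 1 lower, 2 Scgb genes were lower, and 5 Esp genes were higher and 4 lower.

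Past 5 points there were 4 Mup genes higher and 1 lower, and 2 Scgb genes lower. Past 20 points there were 0 Mup and 3 Scgb genes higher, and 1 Esp gene higher and 3 lower. Merged windows gave a Mup mean of 2.97, and a mean over arrays and single genes gave 0.774 for Scgb. A gap of 100 kb gave 11 arrays in place of 4. At a −log10 q of 2 or more, control and deleted coverage was 1.18% and 0.800% of the Mup array, 1.51% and 0.941% of the Scgb array, 6.98% and 3.07% of the first Esp array, and 4.26% and 1.94% of the second. Shares of control-list and deleted-list peaks that overlapped the other list were then 0% and 0% for Mup, 0% and 0% for Scgb, and 14.3% and 20.0% for Esp. These shares rest on 1 and 2 Mup, 3 and 3 Scgb, and 7 and 5 Esp peaks. Counting a peak within 5 kb gave 84.2% and 85.0% for Mup, 85.0% and 81.2% for Scgb, and 95.7% and 98% for Esp. Requiring an overlap of 50% of the peak gave 20.0% for Mup, 6.25% for Scgb (both for the deleted list), and 36.2% and 42.0% for Esp. The shares over all autosomal peaks were not computed at this q or under these rules.

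Single members reversed as follows. Esp34 was -2.63 at a −log10 q of 2 and -17.5 at the median fold. At a −log10 q of 2, Esp24 was 16.1 and Scgb1b24 was -12.8. Esp18 was 10.7 at the median fold and 0.437 with joined peaks. Esp15 was 8.28 for the gene alone, 6.12 at the median fold and 2.18 with joined peaks. Esp5 was 1.91 with 10 kb and 0.128 with joined peaks. Esp1 was 17.1 for the gene alone, Scgb2b4-ps was -8.40 at the median fold, and Scgb2b6 was -5.65 with joined peaks.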

Other observations

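The pseudogenes inside the Mup and Scgb arrays were also covered in part. Of 20 Mup pseudogenes there, 7 had a peak in the control and 9 in the deleted list, beside 30.2% and 30.8% of all protein-coding genes. Their mean window coverage was 3.03% and 3.92%. Mup-ps21 (0% and 17.2%) and Mup-ps26 (5.20% and 17.6%) were over 10 points higher in the deleted list. Of 13 Scgb pseudogenes in the array, 5 had a peak in each list, with means of 5.15% and 9.67%. Scgb2b23-ps (12.8% and 37.5%), Scgb1b34-ps (6.84% and 25.7%) and Scgb1b6-ps (14.9% and 27.3%) were over 10 points higher, and none of these pseudogenes was over 10 points lower. Among all autosomal protein-coding genes 2.44% were over 10 points higher and 2.67% over 10 points lower. On chromosome 4 these were 37 and 7 of 1328 genes, and on chromosome 7 they were 147 and 81 of 2030.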
